A study of Mus musculus with 18 samples.

Results

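Checkpoint ligands and related molecules that tumour cells show to immune cells were followed through 7 genes: Cd274 (PD-L1), Pdcd1lg2 (PD-L2), Cd276 (B7-H3), Cd47, Pvr (CD155), Nt5e (CD73) and Lgals9 (galectin-9). They were taken by symbol, by a rule with no threshold on measured values, out of 29538 genes listed in any of 3 expression tables. The cells were TC1, a mouse tumour line that the labels call a fibrosarcoma. One experiment set cells with a guide against Nat10 (sgNAT10), an RNA acetyltransferase gene, beside unedited wild-type (WT) cells, with 2 sgNAT10 and 2 WT libraries of messenger RNA, 2 and 2 of ribosome footprints (Ribo-seq), and 1 precipitate with 1 input per genotype of acetylated RNA (acRIP-seq). A second experiment set 3 mRNA libraries of cells with a guide against the transcription factor gene Myc (sgMyc) beside 3 WT libraries of its own. The labels name no treatment, do not say whether an edited line is 1 clone or a pool, and do not say whether replicates came from separate cultures, so p-values measure the spread between these libraries, which may be technical.

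Checkpoint ligands bind inhibitory receptors on T cells, natural killer cells or macrophages and dampen their activity. PD-L1 and PD-L2 bind PD-1, CD47 binds SIRP-alpha and acts against phagocytosis, CD155 binds TIGIT, CD96 and CD226, and CD73 is an ectoenzyme that turns AMP into immunosuppressive adenosine. PD-L1 and galectin-9 are known to be induced by interferons, and MYC has been described as a regulator of the PD-L1 and CD47 genes in other tumours.

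The sequences before the starts of Lgals9 and Cd274 are shown because these genes lay below WT in sgNAT10 mRNA and far above WT in sgMyc replicates 1 and 2, and that of Cd47 because it is the other gene named as a MYC target in the background above. Each is the stretch of 250 bases before an annotated start, on the gene's own strand, 5′ to 3′, from RefSeq on build GRCm38.p6: Lgals9 at chr11:78984925-78985174 on the minus strand, Cd274 at chr19:29367188-29367437 and Cd47 at chr16:49855404-49855653 on the plus strand. Capitals mark a match to the interferon-response-type motif GAAA, then 2 bases of any kind, then GAAA, read here on the opposite strand.
Lgals9: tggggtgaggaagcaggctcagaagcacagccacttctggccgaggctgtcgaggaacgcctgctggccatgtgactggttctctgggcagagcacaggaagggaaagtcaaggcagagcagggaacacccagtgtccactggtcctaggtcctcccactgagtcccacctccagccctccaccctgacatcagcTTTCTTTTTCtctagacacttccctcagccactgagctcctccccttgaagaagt
Cd274: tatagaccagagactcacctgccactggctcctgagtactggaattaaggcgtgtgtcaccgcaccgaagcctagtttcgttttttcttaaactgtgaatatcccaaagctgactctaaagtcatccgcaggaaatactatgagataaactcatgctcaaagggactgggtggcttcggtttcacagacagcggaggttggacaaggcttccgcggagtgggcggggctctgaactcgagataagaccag
Cd47: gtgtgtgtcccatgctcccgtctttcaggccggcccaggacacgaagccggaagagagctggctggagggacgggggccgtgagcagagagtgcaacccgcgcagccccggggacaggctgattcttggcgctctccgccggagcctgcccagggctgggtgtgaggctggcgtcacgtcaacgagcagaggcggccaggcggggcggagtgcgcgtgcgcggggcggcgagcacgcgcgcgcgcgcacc
Of 6 members with such a sequence (all but Pvr), Lgals9 alone held this match, at bases 55 to 46 before its start, and 2.98% of 32851 promoters of the same length held one. The other motifs searched on both strands, the Myc-type E-box CACGTG (6.02% of all promoters) and the STAT-type TTCNNNGAA (7.02%), had no match in any of the 6. A match describes letters only, and its absence says nothing about binding. The Cd274 and Cd47 windows lie inside the annotated spans of these genes, which begin further upstream, at bases 29362107 and 49851328. No window before those upstream ends was searched. The Cd274 and Pdcd1lg2 genes are neighbours on chromosome 19, with a gap of 22824 bases between them.

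The sgNAT10 mRNA libraries held between 12.3 and 16.1 M reads recovered from their FPKM values (fragments per kilobase of gene, scaled to the depth of the library), the Ribo-seq libraries between 1.60 and 3.29 M, and the sgMyc set between 51.9 and 65.8 M counts, so footprints were the least precise readout. The edited genes lay below WT in their own sets: Nat10 had 3.59 and 3.95 FPKM in sgNAT10, against 5.36 and 5.30 FPKM in WT, and Myc had 21.1, 20.9 and 34.1 FPKM in sgMyc, against 64.8, 61.6 and 70.8 FPKM in WT. Of 8 fibroblast markers 6 reached 1 FPKM in the sgNAT10 mRNA set and 7 in the sgMyc set, while none of 8 epithelial, 5 endothelial or 8 T cell markers did in either mRNA set. Of 10 macrophage and dendritic markers 3 reached 1 FPKM in the sgNAT10 mRNA set and 2 in the sgMyc set, and Adgre1, Fcgr1 and Flt3 were listed at 0 or not listed in both. The summed level of this list was 12.2 to 13.7 FPKM in sgNAT10, against 5.501 to 6.004 FPKM in WT, and 15.9 to 29.4 FPKM in sgMyc, against 11.3 to 12.5 FPKM in WT. Of this list Cd14 averaged 9.75 FPKM in sgNAT10, against 2.28 FPKM in WT, and 18.7 FPKM in sgMyc, against 8.09 FPKM in WT. It was the 1 of 3 tested that rose in sgNAT10 mRNA. There Csf1r averaged 1.94 FPKM, against 2.28 FPKM in WT, and Cd68 1.25 FPKM, against 1.19 FPKM in WT. In sgMyc 1 of 4 tested rose and 1 fell, or 2 and 1 without sgMyc replicate 3. The sum of the fibroblast markers was 517.1 to 541.0 FPKM in sgNAT10, against 269.7 to 277.9 FPKM in WT, and 850.6 to 1204 FPKM in sgMyc, against 1039 to 1062 FPKM in WT. Most of it was Vim, which averaged 432.1 FPKM in sgNAT10, against 251.3 FPKM in WT, and 722.4 FPKM in sgMyc, against 917.0 FPKM in WT. Of this list 4 of 6 tested rose and 2 fell in sgNAT10 mRNA. In sgMyc 3 of 8 rose and 1 fell, or 6 and 1 without sgMyc replicate 3. The predicted gene Gm23935 took 35.8% of the FPKM of sgNAT10 mRNA replicate 2 and between 22.0% and 23.1% in the other 3 libraries of that table. Of 13 mitochondrial genes 1 rose and 7 fell in sgNAT10 mRNA, 11 fell in sgMyc and 13 without sgMyc replicate 3, and in footprints 6 of 7 tested fell, with a median log2 fold change of -2.24. The part of these levels in the ligand results was not tested. The counts of such lists are to be read against the shares of all genes tested, given below. The library labelled sgMyc replicate 3 stood apart. Its log2 changes over the WT mean correlated with those of replicates 1 and 2 at Pearson's r of 0.469 and 0.475 across 11907 genes, against 0.971 between replicates 1 and 2 (genes are not independent replicates). The sgMyc results of the ligand genes and the counts of the gene lists are therefore given with and without it, and each other gene named below as risen or fallen in sgMyc also passed without it, in the same direction.

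In sgNAT10 cells the mRNA of Cd47, Pvr and Cd276 rose and that of Lgals9 and Nt5e fell, and Cd274 was lower too, at a level under the filter. The test was limma on log2(FPKM + 1) over the 11735 genes that averaged 1 FPKM or more, with Benjamini-Hochberg adjusted p-values and a threshold of 0.05. All 5 members that passed the filter passed the test, 3 up and 2 down, where 63.3% of all genes tested did, 33.7% up and 29.6% down, so a call by itself sets no member apart. In all 5 the sgNAT10 libraries lay wholly above or wholly below the WT libraries, as they did for 43.3% (above) and 39.0% (below) of all genes tested.

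Among the ligands of the B7 family, Cd274 had 0.176 and 0.137 FPKM in sgNAT10 mRNA, against 0.781 and 1.25 FPKM in WT. Both sgNAT10 values lay far under both WT values, but they rest on 11 and 8 recovered reads in sgNAT10 and on 62 and 83 in WT. The mean of 0.586 FPKM over the 4 libraries left Cd274 out of the test. With no filter, limma gave a log2 fold change of -0.79 (adjusted p = 0.0069), which the added pseudocount of 1 shrinks for so low a gene, and edgeR on the recovered reads gave -2.66 with a 95% interval of -3.31 to -2.01 (adjusted p = 5.6e-08). Under these settings 49.7% and 66.9% of all genes passed. The authors' deposited table gives Cd274 a log2 fold change of -2.69 with an adjusted p of 9.08e-08. Pdcd1lg2, the second PD-1 ligand, was not listed in this table. Cd276, a B7 family protein whose receptor is not settled, had 9.07 and 9.45 FPKM in sgNAT10, against 8.11 and 7.38 FPKM in WT. The groups did not overlap, but the gap was small, with a log2 fold change of 0.23 (95% interval 0.09 to 0.38; limma, adjusted p = 0.018). Quantile normalization ended this call (adjusted p = 0.058), as did leaving out sgNAT10 replicate 2 (0.066) or WT replicate 2 (0.079).

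Cd47, the signal against phagocytosis, had 25.3 and 25.1 FPKM in sgNAT10 mRNA, against 15.7 and 17.2 FPKM in WT. Both sgNAT10 libraries were higher, with a log2 fold change of 0.59 ± 0.05 (SE; limma, adjusted p = 0.00042). Pvr, the ligand of TIGIT and of the activating receptor CD226, had 12.2 and 12.6 FPKM in sgNAT10, against 7.57 and 7.52 FPKM in WT. Its replicates were nearly equal within each genotype, and the log2 fold change was 0.65 ± 0.04 (SE; limma, adjusted p = 0.00015). Nt5e, the adenosine-producing ectoenzyme, had 0.621 and 0.396 FPKM in sgNAT10, against 1.77 and 1.62 FPKM in WT. It was low in all 4 libraries and lowest in sgNAT10, with a log2 fold change of -0.84 on the log2(FPKM + 1) scale (limma, adjusted p = 0.0017), and of -1.74 by edgeR on recovered reads (adjusted p = 3.5e-11). Lgals9, which encodes galectin-9, a lectin that binds TIM-3 and other glycoproteins, had 9.07 and 9.83 FPKM in sgNAT10, against 19.4 and 20.6 FPKM in WT. Its mean of 9.45 ± 0.54 FPKM in sgNAT10 was 0.473 of the 20.0 ± 0.80 FPKM in WT (SD, n = 2 each), with a log2 fold change of -1.01 (limma, adjusted p = 9.4e-05). Bulk libraries cannot tell less RNA per cell from fewer cells with the RNA.

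**Figure D1:**
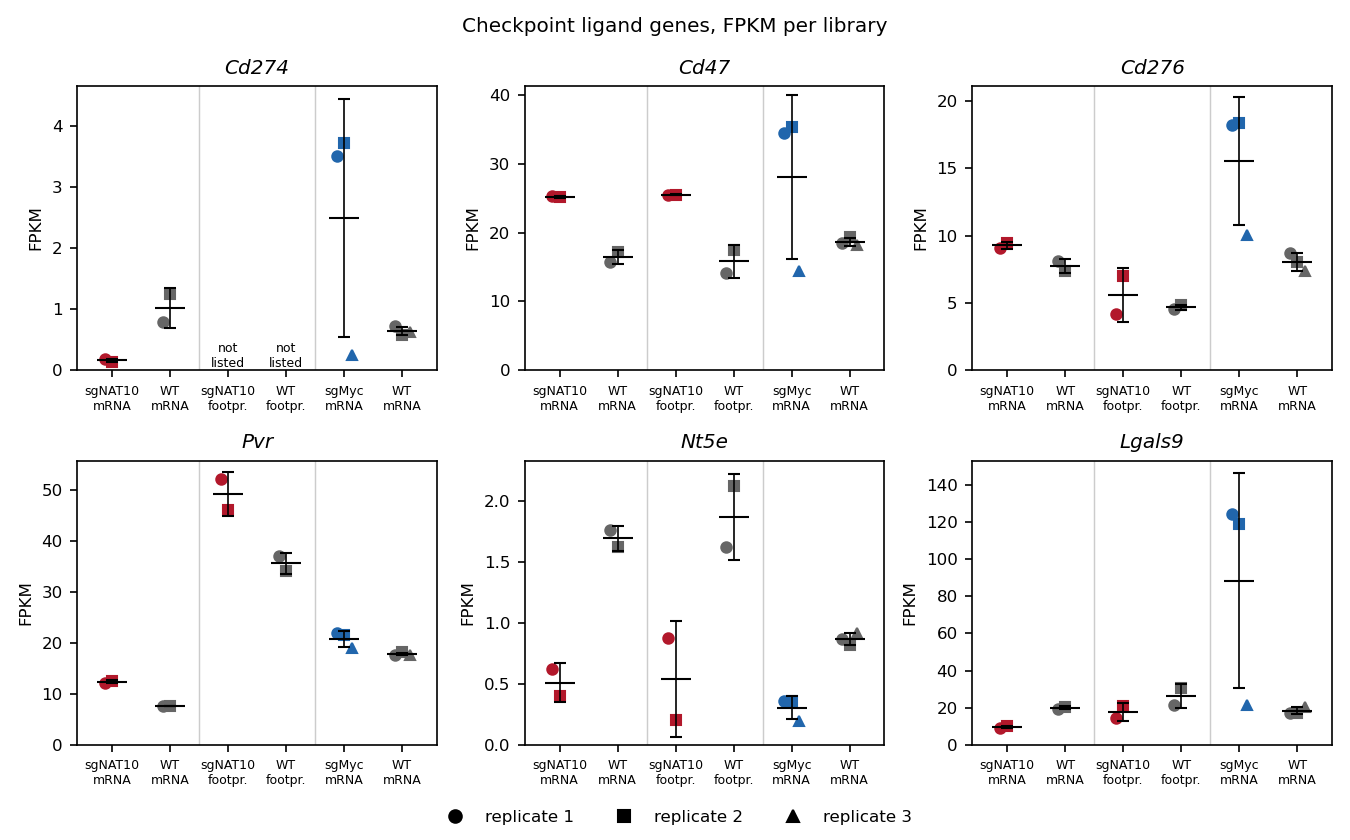
FPKM (vertical axis, from 0) of 6 ligand genes in each library of sgNAT10 mRNA, footprints and sgMyc mRNA, each edited group left of its own WT; symbols are replicates and bars are mean ± SD. Lgals9 reached 124.7 and 119.0 FPKM in sgMyc replicates 1 and 2 but 21.7 FPKM in replicate 3, and levels of the 2 mRNA tables are not to be compared.

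Footprints count ribosomes on an mRNA, and in sgNAT10 none of the 5 members listed passed the test, where 3.09% of 9707 genes did (limma, the same test). At an unadjusted p under 0.05 limma passed Cd47 and Pvr, 2 of the 5, as it did 20.7% of all genes, and edgeR on recovered reads called none at an adjusted p under 0.05 (7.67% of all genes). Cd274 and Pdcd1lg2 were not listed in the footprint table. Cd47 had 25.5 and 25.5 FPKM of footprints in sgNAT10, against 14.1 and 17.5 FPKM in WT. Its log2 fold change was 0.67 (95% interval 0.11 to 1.23; limma, adjusted p = 0.18). Pvr had 52.2 and 46.1 FPKM in sgNAT10, against 37.1 and 34.1 FPKM in WT, with a log2 fold change of 0.45 (0.01 to 0.90; limma, adjusted p = 0.24). The authors' deposited table, whose test is not named, lists adjusted p-values of 0.0236 for Cd47 and 0.0239 for Pvr.

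The footprints of the other members were noisier. Lgals9 had 14.3 and 20.9 FPKM of footprints in sgNAT10, against 21.5 and 30.8 FPKM in WT. The higher sgNAT10 library lay just under the lower WT library, and the log2 fold change was -0.55 (95% interval -1.27 to 0.17; limma, adjusted p = 0.36). Nt5e had 0.879 and 0.202 FPKM in sgNAT10, from 27 and 3 recovered reads, against 1.62 and 2.12 FPKM in WT, from 44 and 56 (log2 fold change -0.93; limma, adjusted p = 0.37). Cd276 had 4.13 and 6.97 FPKM in sgNAT10, against 4.51 and 4.81 FPKM in WT, so its groups overlapped (0.18; limma, adjusted p = 0.83). In Cd47 and Pvr the sgNAT10 footprints lay above both WT libraries, and in Lgals9 and Nt5e below both. Each direction held for 25.6% of all genes tested.

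The ratio of footprint to mRNA FPKM, a measure of ribosome load, placed Pvr near the top of all genes: 3.97 in sgNAT10 and 4.72 in WT, at the 96.9th and 98.0th percentile of about 9198 genes, whose median was 1.14 in sgNAT10 and 1.15 in WT. The ratio of Lgals9 was 1.86 in sgNAT10 and 1.31 in WT, that of Nt5e 1.06 in sgNAT10 and 1.10 in WT. That of Cd47 was 1.01 in sgNAT10 and 0.960 in WT, and that of Cd276 0.599 in sgNAT10 and 0.601 in WT. The change of this ratio was tested as a genotype by assay interaction. None of the 5 members passed (24 of 9200 genes did, 0.261%) by limma, and none did at an unadjusted p under 0.05. The widest interval was that of Nt5e, from -1.04 to 0.86 on the log2 scale, and the narrowest that of Pvr, from -0.56 to 0.17 around -0.19. For acetylated RNA, the deposited table, which is named as one of differential peaks, lists 1358 peaks in 1066 genes and none in any of the 7 members. That list has 1 library of each kind and no value for genes without a peak, so it sets no upper limit on their acetylation. The sgNAT10 mRNA table lists 17379 genes, so most genes had no listed peak.

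**Figure D2:**
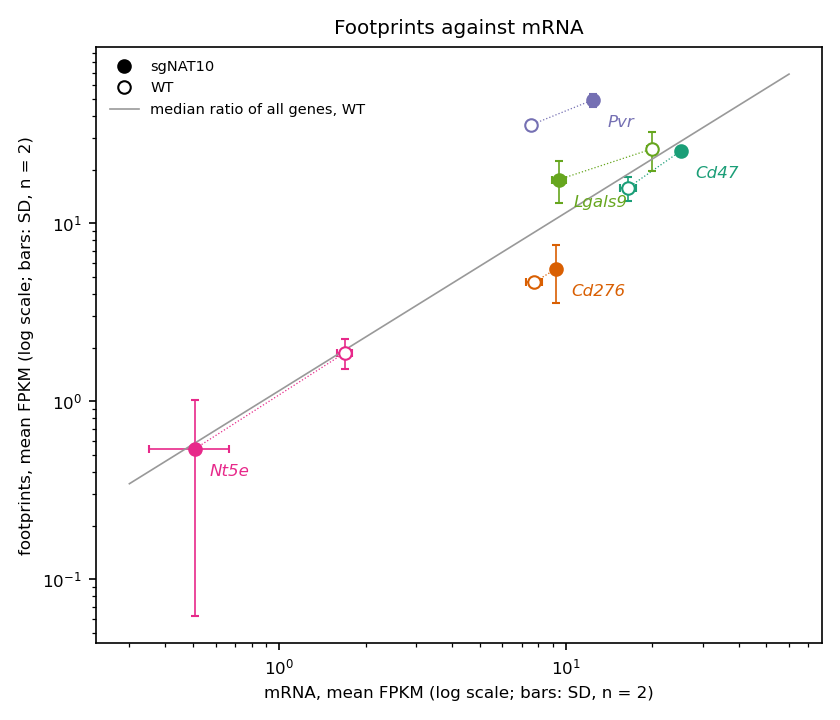
Mean footprint FPKM against mean mRNA FPKM (both log axes, bars are SD, n = 2) of 5 ligand genes in sgNAT10 (filled) and WT (open), joined by dotted lines; the grey line is the median ratio of all genes in WT. Pvr lies furthest above that line, with ratios of 3.97 in sgNAT10 and 4.72 in WT.

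In sgMyc cells 2 libraries of 3 carried far more Lgals9 and Cd274 mRNA than WT and the other did not. With all 6 libraries 2 of 6 tested members passed, Cd276 up and Nt5e down (edgeR's quasi-likelihood test on the deposited counts, 16794 genes, of which 16.0% passed, 7.11% up and 8.86% down). Without sgMyc replicate 3 all 6 passed, 5 up and Nt5e down, where 53.6% of 17485 genes did (26.6% up and 26.9% down).

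Of the B7 family genes, Cd274 had 3.51, 3.73 and 0.242 FPKM in sgMyc replicates 1, 2 and 3, against 0.718, 0.576 and 0.631 FPKM in WT. Replicates 1 and 2 lay above every WT library and replicate 3 below every one, at 824, 863 and 65 counts in sgMyc, against 161, 120 and 141 counts in WT. The log2 fold change was 1.94 with a 95% interval from -0.12 to 3.99 (edgeR, adjusted p = 0.18), and 2.52 (2.22 to 2.82; adjusted p = 5.0e-07) without replicate 3. Pdcd1lg2 had 0, 0 and 4 counts in sgMyc and 0 in each WT library, where 0 allows up to 3 counts, so no fold is given. Cd276 had 18.2, 18.4 and 10.04 FPKM in sgMyc, against 8.72, 8.005 and 7.36 FPKM in WT. All 3 sgMyc libraries lay above WT, replicate 3 by least, and the log2 fold change was 0.95 (0.40 to 1.49; edgeR, adjusted p = 0.038), or 1.22 without replicate 3 (adjusted p = 7.4e-07). The Cd276 call was lost when any single other library of the set was left out (adjusted p between 0.12 and 0.16).

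Cd47 had 34.5, 35.4 and 14.3 FPKM in sgMyc, against 18.5, 19.3 and 18.2 FPKM in WT. Again replicates 1 and 2 lay above WT and replicate 3 below it. The log2 fold change was 0.58 (95% interval -0.17 to 1.34; edgeR, adjusted p = 0.27), and 0.94 (0.86 to 1.01; adjusted p = 4.8e-08) without replicate 3. Pvr had 21.9, 21.6 and 19.01 FPKM in sgMyc, against 17.6, 18.1 and 17.7 FPKM in WT. All 3 sgMyc libraries were slightly higher, with a log2 fold change of 0.22 (0.05 to 0.40; edgeR, adjusted p = 0.088), and 0.32 (adjusted p = 3.1e-05) without replicate 3.

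Nt5e had 0.362, 0.360 and 0.193 FPKM in sgMyc, against 0.866, 0.821 and 0.921 FPKM in WT. Among the 6 members tested it was the 1 whose replicate 3 lay further from WT than replicates 1 and 2. Its log2 fold change was -1.51 (-2.13 to -0.90; edgeR, adjusted p = 0.013), and -1.23 (adjusted p = 4.8e-05) without replicate 3. Leaving out WT replicate 1, 2 or 3 ended this call (adjusted p = 0.063, 0.058 and 0.071 in that order). Lgals9 had 124.7, 119.0 and 21.7 FPKM in sgMyc, against 17.1, 17.3 and 20.5 FPKM in WT. Replicate 3 lay just above the highest WT library and replicates 1 and 2 far above it. The log2 fold change was 2.26 (0.82 to 3.70; edgeR, adjusted p = 0.051), and 2.77 (2.60 to 2.93; adjusted p = 6.4e-09) without replicate 3. With all 6 libraries it passed by DESeq2 (adjusted p = 0.0077) and with RLE size factors in edgeR (0.0497), and the adjusted p ran from 6.4e-09 to 0.18 over all settings. In the 6-library comparison Lgals9, Cd276 and Pvr lay wholly above WT, as 16.2% of all genes did, and Nt5e wholly below, as 21.7% did.

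**Figure D3:**
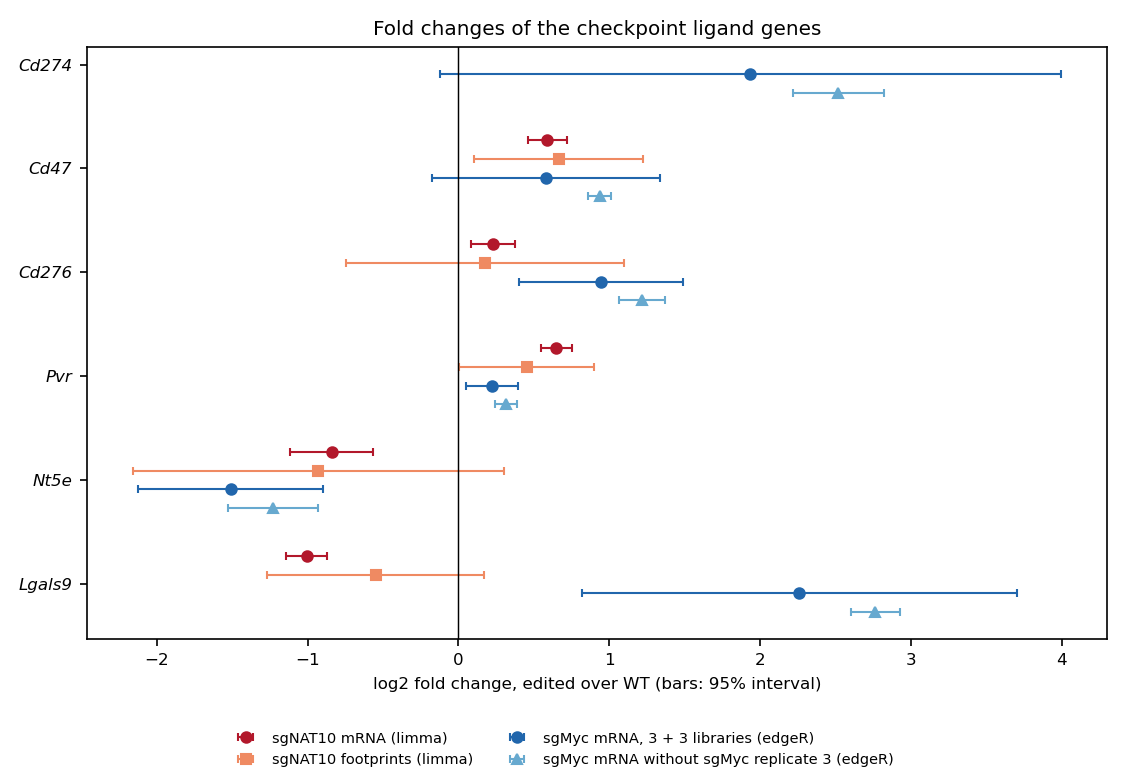
Log2 fold changes of 6 ligand genes, edited over WT, with 95% intervals: sgNAT10 mRNA and footprints by limma on log2(FPKM + 1), and sgMyc mRNA by edgeR with all libraries and without sgMyc replicate 3. Lgals9 lies at -1.01 in sgNAT10 mRNA and at 2.26 in sgMyc, and the sgMyc intervals shrink without replicate 3.

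The edits were set against each other by the difference of their log2 fold changes, sgNAT10 minus sgMyc, in 1 limma model of both mRNA tables, which were normalized separately. Of the 4 members tested Pvr passed, where 21.0% of 10265 genes did (59.6% without sgMyc replicate 3). Pvr rose more in sgNAT10, by 0.44 (95% interval 0.22 to 0.66; adjusted p = 0.014), and by 0.38 without sgMyc replicate 3. This call ended when sgNAT10 replicate 2 (adjusted p = 0.068), WT replicate 1 (0.060) or WT replicate 2 (0.064) of the sgNAT10 set was left out. For Lgals9 the difference was -2.87 (-4.93 to -0.81; limma, adjusted p = 0.055), and -3.68 (adjusted p = 1.1e-08) without sgMyc replicate 3. For Cd276 it was -0.60 (-1.31 to 0.12; limma, adjusted p = 0.22), and -0.87 (adjusted p = 4.0e-05) without that library. For Cd47 it was 0.13 (-0.92 to 1.17; limma, adjusted p = 0.88), and turned to -0.28 (adjusted p = 0.0038) without it. Cd274 and Nt5e averaged under 1 FPKM in a table and were not tested. With no filter their differences were -1.65 for Cd274 (limma, adjusted p = 0.16) and -0.32 for Nt5e (adjusted p = 0.11). Both fits kept sgMyc replicate 3, and the pseudocount of 1 shrinks differences of such low genes. No fit of the difference without that library covered these genes.

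By level within a table, Cd47 was the highest member in sgNAT10 mRNA at 25.2 FPKM, followed by Pvr at 12.4 FPKM, while Lgals9 at 9.45 and Cd276 at 9.26 FPKM could not be ordered because their libraries overlapped. In the WT libraries of that set Lgals9 was highest at 20.0 FPKM, then Cd47 at 16.4 FPKM, and Cd276 at 7.75 and Pvr at 7.54 FPKM overlapped. Nt5e and Cd274 came last in both genotypes. In sgMyc replicates 1 and 2 Lgals9 averaged 121.8 FPKM, at the 99.0th percentile of genes detected, ahead of Cd47 at 35.0, Pvr at 21.7 and Cd276 at 18.3 FPKM. In the WT libraries of the sgMyc set Cd47 at 18.6, Lgals9 at 18.3 and Pvr at 17.8 FPKM followed each other closely. There, the libraries of Cd47 and Lgals9, and those of Lgals9 and Pvr, overlapped.

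The genes whose log2 changes from WT lay nearest to each member were picked from 9056 genes. They had the smallest root mean square difference from it over the 7 edited libraries of the 3 tables. For Lgals9 they were Ly6e (0.217) and Tapbp (0.270). For Cd47 they were H2-D1 (0.149) and Sema3c (0.150), for Cd276 Wdfy1 (0.106) and Trim56 (0.125), and for Pvr Casp8 (0.041) and Nid1 (0.060). Ly6e, for instance, had a mean log2 change of -0.76 in sgNAT10 mRNA and 2.50 in sgMyc replicates 1 and 2, and of 0.48 in sgMyc replicate 3.

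The counts of gene lists from here on are to be read against those of all genes tested. In sgNAT10 mRNA 33.7% rose and 29.6% fell, in sgMyc 7.11% rose and 8.86% fell, and without sgMyc replicate 3 it was 26.6% and 26.9%. Among 11 genes of the interferon-gamma pathway that acts on Cd274, 4 rose and none fell in sgMyc, with a median log2 fold change of 0.25 against -0.03 over all genes tested. Without sgMyc replicate 3, 10 of 11 rose (median 0.59, against -0.01 over all genes). Stat2, a transcription factor of interferon signalling, had 52.8, 53.5 and 5.75 FPKM in sgMyc, against 3.73, 3.60 and 3.55 FPKM in WT (edgeR, adjusted p = 0.034). Its replicates 1 and 2 lay far above WT and replicate 3 slightly above. Irf9, a DNA-binding partner of STAT2, had 33.0, 34.3 and 7.51 FPKM in sgMyc, against 2.35, 2.13 and 2.12 FPKM in WT (adjusted p = 0.011). The Stat2 call ended when any single library other than sgMyc replicate 3 was left out (edgeR, adjusted p between 0.094 and 0.15), and the Irf9 call without any 1 WT library (0.064 to 0.074). Irf1, a direct activator of Cd274, had 18.9, 19.04 and 6.06 FPKM in sgMyc, against 6.87, 6.96 and 6.83 FPKM in WT. Its replicate 3 lay below every WT library. The log2 fold change of Irf1 was 1.08 (edgeR, adjusted p = 0.12), and 1.49 (adjusted p = 1.4e-08) without replicate 3. Jak1, a kinase of interferon receptors, rose to 73.4 ± 4.2 FPKM in sgMyc, against 46.4 ± 1.9 FPKM in WT (SD, n = 3 each; log2 fold change 0.66; edgeR, adjusted p = 0.0034). Per library, 10, 10 and 5 of these 11 genes exceeded every WT library in sgMyc replicates 1, 2 and 3, against 37.5%, 37.8% and 35.7% of all genes. In the same order, 0, 0 and 6 of the 11 lay below every WT library, against 43.8%, 44.0% and 42.3% of all genes.

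In sgNAT10 mRNA 4 of the 10 interferon-pathway genes tested rose and 2 fell (median 0.11, against 0.01 over all genes). Jak1 rose to 56.0 ± 0.21 FPKM in sgNAT10, against 23.6 ± 0.95 FPKM in WT, and Socs3, a feedback inhibitor, to 8.46 ± 0.47 FPKM, against 4.11 ± 0.12 FPKM in WT (SD, n = 2 each). Irf1 fell to 3.60 ± 0.07 FPKM in sgNAT10, against 7.34 ± 0.36 FPKM in WT (log2 fold change -0.86; limma, adjusted p = 0.00016). Jak1 also passed in footprints, the 1 of 11 interferon-pathway genes tested there to do so (log2 fold change 1.24; limma, adjusted p = 0.024). Whether these genes act on the ligands was not tested.

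**Figure D4:**
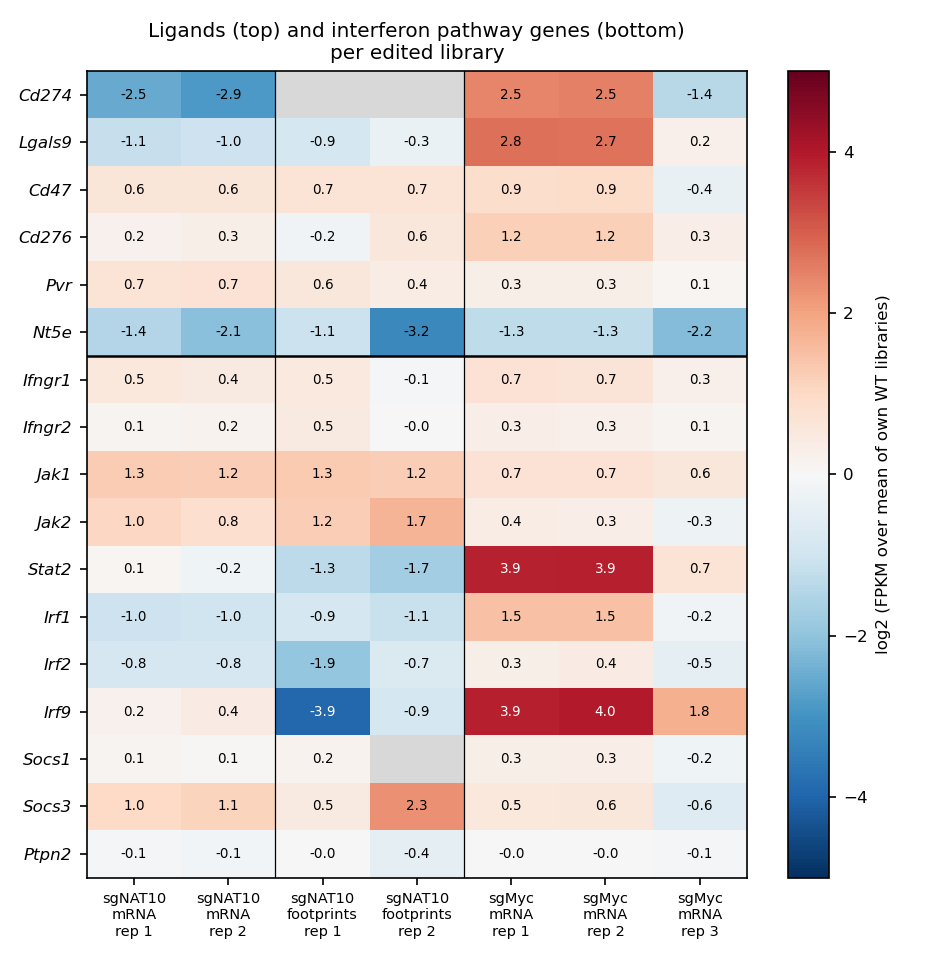
Log2 of FPKM over the mean of the own WT libraries, per edited library, for 6 ligand genes (above the line) and 11 interferon-pathway genes (below it); red is above WT, blue below, and grey is not listed or 0. Cd274 is at -2.5 and -2.9 in sgNAT10 mRNA, at 2.5 and 2.5 in sgMyc replicates 1 and 2, and at -1.4 in sgMyc replicate 3.

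Of a list of 11 checkpoint and costimulatory receptor genes of T cells and natural killer cells, which does not hold Sirpa, 1 reached 1 FPKM in these tumour cells. This was Tigit, the receptor of CD155, named after its values were seen. Tigit had 1.75 and 1.80 FPKM in sgNAT10 mRNA, against 11.4 and 10.6 FPKM in WT (log2 fold change -2.11; limma, adjusted p = 1.7e-05). In the second set Tigit had 0.506, 0.324 and 0.905 FPKM in sgMyc, against 5.79, 5.10 and 5.09 FPKM in WT (log2 fold change -3.15; edgeR, adjusted p = 0.0045). So Tigit was lower in all 5 edited mRNA libraries than in any WT library of its set. Of 8 T cell markers Cd3e, Cd3d, Cd3g, Cd2 and Ptprc were listed at 0 or not listed in both mRNA tables, and the summed level of the list stayed at 0.083 FPKM or less in every library.

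Of the CD47 axis, 5 of 7 genes tested rose in sgNAT10 mRNA and none fell (median log2 fold change 0.63, against 0.01 over all genes). In footprints 2 of 7 rose and none fell, with a median of 0.024. Thbs1, a thrombospondin that binds CD47, rose to 102.0 ± 5.6 FPKM in sgNAT10, against 8.66 ± 0.34 FPKM in WT, and Thbs2 to 22.3 ± 0.73 FPKM, against 1.84 ± 0.18 FPKM in WT (SD, n = 2 each). Both also rose in footprints, with log2 fold changes of 3.33 for Thbs1 and 3.98 for Thbs2 (limma, adjusted p = 0.00061 and 0.0028). Sirpa, the receptor of CD47, rose to 9.02 ± 0.02 FPKM in sgNAT10, against 5.24 ± 0.12 FPKM in WT, and its footprints had a log2 fold change of -0.23 (limma, adjusted p = 0.86). In sgMyc 2 of 8 rose and 1 fell, or 4 and 2 without sgMyc replicate 3. Thbs2 rose to 147.9 ± 73.9 FPKM in sgMyc, against 40.3 ± 5.0 FPKM in WT, Thbs1 to 91.3 ± 8.1 FPKM, against 61.9 ± 5.3 FPKM in WT, and the integrin gene Itgav fell to 14.5 ± 0.92 FPKM, against 22.1 ± 1.1 FPKM in WT (SD, n = 3 each).

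Of the other galectins, 3 of 4 tested rose in sgNAT10 mRNA and 1 fell, so Lgals9 moved against Lgals3 and Lgals1. Lgals3 rose to 178.9 ± 2.1 FPKM in sgNAT10, against 52.7 ± 3.2 FPKM in WT, Lgals1 to 1850 ± 32.4 FPKM, against 1039 ± 5.1 FPKM in WT, and Lgalsl, a galectin-like gene, fell to 9.29 ± 0.34 FPKM, against 15.6 ± 0.69 FPKM in WT (SD, n = 2 each). Lgals3 and Lgals1 rose in footprints as well (limma, adjusted p = 0.0033 and 0.0092), 2 of 4 tested. In sgMyc 2 of 6 rose and none fell (3 without sgMyc replicate 3), Lgals3 to 286.5 ± 61.4 FPKM, against 187.4 ± 1.9 FPKM in WT (SD, n = 3 each).

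Of the adenosine list around Nt5e, 3 of 4 genes tested fell in sgNAT10 mRNA and none rose. Ada, which degrades adenosine, fell to 7.05 ± 0.60 FPKM in sgNAT10, against 13.4 ± 0.03 FPKM in WT. The nucleoside transporter genes Slc29a1 and Slc29a2 fell to 13.3 ± 0.36 and 4.94 ± 0.18 FPKM in sgNAT10, against 21.7 ± 0.14 and 6.19 ± 0.03 FPKM in WT (SD, n = 2 each). In sgMyc 3 of 8 fell and none rose, or 6 and 1 without sgMyc replicate 3, and the adenosine receptor gene Adora2b fell to 0.514 ± 0.022 FPKM in sgMyc, against 1.55 ± 0.23 FPKM in WT (SD, n = 3 each). In footprints none of 5 passed (limma; 2 at an unadjusted p under 0.05, and none by edgeR on recovered reads).

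Of the nectins, the family of Pvr, Nectin3 rose and Nectin1 and Nectin2 fell in sgNAT10 mRNA, all 3 tested. Nectin3 had 3.32 ± 0.12 FPKM in sgNAT10, against 2.03 ± 0.11 FPKM in WT, and Nectin2, a further ligand of TIGIT and CD226, had 6.74 ± 0.30 FPKM, against 8.86 ± 0.21 FPKM in WT (SD, n = 2 each). Nectin1 had 3.67 ± 0.21 FPKM in sgNAT10, against 5.11 ± 0.26 FPKM in WT. In sgMyc Nectin1 alone of 4 fell, with and without sgMyc replicate 3, to 1.07 ± 0.27 FPKM, against 2.37 ± 0.22 FPKM in WT (SD, n = 3 each). In footprints none of 3 nectins passed (limma; none at an unadjusted p under 0.05, and none by edgeR on recovered reads).

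Of the regulators of PD-L1 protein or transcription, 7 of 21 rose and 3 fell in sgNAT10 mRNA, with a median log2 fold change of 0.0035, so that the share that rose lay near that of all genes. Stub1, a ubiquitin ligase, rose to 70.2 ± 0.96 FPKM in sgNAT10, against 41.6 ± 0.05 FPKM in WT, and Spop, an adaptor of a ubiquitin ligase, to 64.4 ± 0.50 FPKM, against 43.5 ± 0.80 FPKM in WT. In footprints 1 of 20 regulators tested rose and 1 fell, where 3.09% of all genes passed. The footprints of Stub1 were higher too, at 76.1 ± 12.5 FPKM in sgNAT10, against 29.0 ± 1.6 FPKM in WT. Those of Spop lay against its mRNA, at 8.63 ± 1.3 FPKM in sgNAT10, against 15.2 ± 6.3 FPKM in WT (SD, n = 2 each). Their log2 fold change was -0.70 (limma, adjusted p = 0.34). Myc fell in this set too, to 40.5 ± 0.66 FPKM in sgNAT10, against 115.8 ± 1.3 FPKM in WT (SD, n = 2 each), also in footprints (log2 fold change -1.47; limma, adjusted p = 0.030). In sgMyc 2 of 21 fell (also 2 by DESeq2) and none rose, the guide's own target Myc and Hif1a, a hypoxia factor, at 25.7 ± 0.57 FPKM in sgMyc, against 34.1 ± 0.89 FPKM in WT. Without sgMyc replicate 3 these counts were 9 up and 5 down.

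Of other B7 family genes none of 9 reached the mean of 1 FPKM in sgNAT10 mRNA, and in sgMyc 1 of 4 tested fell (without sgMyc replicate 3, 2 rose and 1 fell), Icosl, named after its values were seen, at 0.067 ± 0.030 FPKM in sgMyc, against 0.727 ± 0.171 FPKM in WT (SD, n = 3 each). Under the filter in sgNAT10 mRNA, Icosl lay at 0.046 ± 0.011 FPKM in sgNAT10, against 0.962 ± 0.093 FPKM in WT (SD, n = 2 each). Cd80, also named after its values were seen, was at 2.21 ± 0.93 FPKM in sgMyc and at 3.07 ± 0.15 FPKM in WT (SD, n = 3 each; edgeR, adjusted p = 0.36). Under the filter in sgNAT10 mRNA, Cd80 averaged 0.872 FPKM in sgNAT10, against 0.527 FPKM in WT. Its footprints averaged 0.170 FPKM in sgNAT10, against 1.97 FPKM in WT (limma, adjusted p = 0.38). Of TNF family ligands 2 were tested in sgMyc and none passed (edgeR; 1 at an unadjusted p under 0.05, and 1 by DESeq2), while both rose without sgMyc replicate 3. Of further inhibitory factors 2 of 5 rose and 3 fell in sgNAT10 mRNA, and 4 of 12 rose and 3 fell in sgMyc (4 and 5 without sgMyc replicate 3). Ptgs2, which makes prostaglandins, rose to 48.4 ± 0.18 FPKM in sgNAT10, against 1.48 ± 0.11 FPKM in WT, while the growth factor genes Tgfb2 and Tgfb1 fell, Tgfb2 to 0.051 ± 0.012 FPKM in sgNAT10, against 2.25 ± 0.06 FPKM in WT, and Tgfb1 to 2.27 ± 0.16 FPKM in sgNAT10, against 7.85 ± 0.07 FPKM in WT (SD, n = 2 each). The related gene Tgfb3, named after its values were seen, went the other way. It had 5.49 ± 0.47 FPKM in sgNAT10, against 2.58 ± 0.34 FPKM in WT (SD, n = 2 each). Ptgs2 also passed in footprints, the 1 of 7 to do so (log2 fold change 4.40; limma, adjusted p = 0.0033). Ptgs2 rose in sgMyc as well, to 65.9 ± 5.7 FPKM, against 18.1 ± 1.4 FPKM in WT (SD, n = 3 each; edgeR, adjusted p = 0.00043). In sgMyc Siglec15, a B7-like ligand, had 4.06, 3.59 and 1.39 FPKM, against 0.564, 0.636 and 0.845 FPKM in WT (edgeR, adjusted p = 0.024), and the arginase gene Arg2 had 3.91, 3.00 and 0.363 FPKM in sgMyc, against 0.133, 0.032 and 0.113 FPKM in WT (edgeR, adjusted p = 0.025). Of the NKG2D ligands, which activate natural killer cells, Raet1e rose to 12.7 ± 0.14 FPKM in sgNAT10, against 8.07 ± 0.57 FPKM in WT (SD, n = 2 each), 1 of 2 tested. In sgMyc Raet1d and Ulbp1 fell, to 4.09 ± 0.33 and 1.01 ± 0.30 FPKM, against 6.53 ± 0.31 and 1.96 ± 0.09 FPKM in WT (SD, n = 3 each), 2 of 3 tested, and 1 rose without sgMyc replicate 3 beside the 2 that fell.

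The acRIP table lists peaks in 8 of the 122 genes of these lists, Lgals1, Lgals3, Thbs2, Calr, Lrp1, Stub1, Myc and Ptgs2, with the highest fold enrichment, as the authors give it, of 2.82 in Myc and 2.60 in Ptgs2. Over all genes it lists peaks in 1066, where the sgNAT10 mRNA table lists 17379 genes. The 122 include genes that the sgNAT10 mRNA table does not list, so these counts have unlike bases. Whether 8 is more or less than the share of all genes was not tested. Genes on the opposite strand overlap 5 members in the sgMyc table, among them Gm16184 over Pvr with 191 to 263 counts per library and Gm36043 over Cd274 with 0 to 84. Whether counting used strand is not stated, so reads of such pairs cannot be told apart.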

How the data were processed

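The members and gene lists were chosen with earlier results of these data known. Per the submitters' processing notes, FastQC, Trim Galore, Bowtie2, featureCounts and build mm10 were used, with versions and roles not given in the sources used here. Per the file headers, the authors deposited counts with FPKM for the sgMyc set and FPKM, log2 fold changes and p-values for both sgNAT10 sets, mRNA and Ribo-seq. The acRIP table deposited by the authors gives a fold enrichment per peak, which was used only as a description.

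The FPKM sets were tested with limma 3.58.1 (R 4.3.3, eBayes with trend) on log2(FPKM + 1) where a gene averaged 1 FPKM or more. This scale understates the change of low genes. The counts were tested with edgeR 4.0.16 (filterByExpr, TMM, quasi-likelihood F test), with DESeq2 1.42.0 as an alternative. The Benjamini-Hochberg adjustment ran over all genes tested, with a threshold of 0.05. Translational efficiency and the difference between the edits were limma interactions. Whole reads were recovered from ratios of FPKM between libraries, to within 1e-09, in 99.9% of genes of the mRNA table and 100% of the Ribo-seq table. They are the smallest whole numbers with these ratios, and fall short where a gene's reads have a common divisor. Reads per FPKM of Cd276 and Cd47, set against the median gene, differed between the mRNA tables (ratios 0.501 and 0.843), so levels were compared within a table only. The scripts were tested on simulated data: at a simulated log2 fold change of 1, 90.2% of changed genes were recovered in sgNAT10 mRNA, 31.8% in footprints and 100% in sgMyc mRNA. The simulated libraries had a fixed spread per assay, and none stood apart as sgMyc replicate 3 did. Changed genes were drawn only from those with enough reads. These shares therefore check the scripts and do not give the power for the members.

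Pathway genes are named by rule, up to 3 per list and comparison with the largest change among those past the test, with groups that do not overlap and 1 FPKM or more on average in the higher group. A few genes of the lists are not reported here and were left out of the counts. Alternatives covered pseudocount, filters, scaling, other tests, a replicate block and leaving out each library. The labels do not say whether equal replicate numbers pair the libraries. The correlations of same-numbered deviations lay between -0.018 and 0.024, so no shared deviation showed, which cannot settle how the libraries were made.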

Additional observations from a re-analysis of the deposited data

Results flagged for a closer look

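The log2 fold change of Pvr was larger in sgNAT10 than in sgMyc, by 0.44 (limma interaction, adjusted p = 0.014), a call that ended when any 1 of 3 libraries of the sgNAT10 set was left out. Lgals9 lay below WT in both sgNAT10 mRNA libraries and above WT in all 3 sgMyc libraries, with a difference of -2.87 that missed the threshold (limma interaction, adjusted p = 0.055).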

How the results depend on the processing

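In sgNAT10 mRNA the calls of Cd47, Pvr, Nt5e and Lgals9 held under every alternative that gave them a value. The number of genes past the test was 300 in footprints, 87 without the eBayes trend and 756 by edgeR on recovered reads. In sgMyc mRNA 2 members passed, but 1 with no filter on low counts and 0 by limma on log2(FPKM + 1). With the replicate number as a block, 0 members and 949 genes passed in sgMyc mRNA, against 2682 genes without the block, and 4 genes in translational efficiency, against 24 without it. Whether the numbers pair the libraries is not stated, so these counts say nothing of weaker effects. No sgNAT10 mRNA call of a member changed under the block.

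Leaving out 1 library at a time gave 6078 to 6890 genes and 3 to 5 members past the test in sgNAT10 mRNA, 0 to 9 genes and 0 members in footprints, 680 to 9368 genes and 0 to 6 members in sgMyc mRNA, 3 to 640 genes and 0 members in translational efficiency, and 1136 to 6115 genes and 0 to 4 members in the difference between the edits. The highest sgMyc and difference counts were those without sgMyc replicate 3; the cause was not tested. Without 1 library at a time the log2 fold change took both signs for Cd276 footprints (-0.14 to 0.49), for the translational efficiency of Cd47 (-0.072 to 0.23), Cd276 (-0.37 to 0.26), Nt5e (-0.41 to 0.23) and Myc (-0.30 to 0.34), for the difference of Cd47 (-0.28 to 0.34), Nat10 (-0.34 to 0.032) and Myc (-0.24 to 0.10), and for Nat10 in sgMyc mRNA (-0.52 to 0.0036). Another scaling moved the split of calls to 2072 higher and 1693 lower by DESeq2 in sgMyc mRNA, against 1194 and 1488 by edgeR, and to 1179 and 878 by median scaling in the difference, against 1457 and 696. In sgNAT10 mRNA it was 3405 and 4104 by median scaling and 3464 and 3992 by quantile normalization, against 3960 and 3471.

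The low levels of Cd274, Pdcd1lg2 and Nt5e, with 2 or 3 libraries a group, limit what can be said of them.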
